A study of Mus musculus with 6 samples.

Results

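The genes described here encode receptors and bridging proteins through which phagocytes recognize and engulf dying cells. They were chosen by name, as 10 genes of this process: the receptors Axl, Mertk, Tyro3, Cd36, Megf10, Stab1 and Timd4 and the bridging proteins Gas6, Pros1 and Mfge8. The choice was made with earlier results of these data known, so counts among the 10 genes describe these genes only. All 10 were represented on the array, by 268 of the 209279 probe sets assigned to 1 gene, and 9 of the 10 were among the 14742 of 16380 genes whose signal was high enough to be tested. The gene left out by that filter was Timd4.

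Dying cells expose phosphatidylserine on their surface, and phagocytes bind it either directly, through receptors such as TIM-4 and stabilin-1, or through soluble bridging proteins that attach to the lipid at one end and to a receptor at the other. Gas6 and protein S bridge phosphatidylserine to the TAM receptor tyrosine kinases Tyro3, Axl and Mer, and MFG-E8 bridges it to integrins that contain the alpha v subunit. In the olfactory epithelium, sensory neurons die throughout life and all the more when their axons lose the olfactory bulb, and macrophages are known to clear their remains.

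The olfactory epithelium of 3 male C57BL/6 mice was sampled 5 days after the olfactory bulb of one side was removed. The ipsilateral epithelium (OBX, 3 arrays) was set against the contralateral epithelium of the same animal (control, 3 arrays), so every control sample also came from an operated mouse. The sample labels give an age of 8 weeks, and the methods a younger one. Each epithelium was hybridized to its own exon array, and the values are log2 signals from robust multichip analysis (RMA) of probe sets, which lie within single exons, combined here into 1 log2 value per gene and array.

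The arrays were alike in level, with median signals of 8.37 to 8.55 on the log2 scale. Over probe sets, arrays of the same side correlated at r = 0.970 to 0.983 and the sides of the same mouse at 0.955 to 0.969. The tissue carried the genes that define its cell types: Omp of mature olfactory sensory neurons (OSNs) averaged 13.21 ± 0.49 in OBX epithelium and 14.22 ± 0.05 in control epithelium (SD, n = 3 mice), and the sustentacular cytochrome gene Cyp2g1 averaged 13.85 ± 0.06 in OBX epithelium and 13.93 ± 0.05 in control epithelium. Mouse 2 stood apart in the size of its response: its Omp difference was -1.54 on the log2 scale, against -0.67 in mouse 1 and -0.84 in mouse 3. Mouse 2 also decided some of the values below, which are therefore given with and without it.

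Of the 9 genes tested, 4 rose on the OBX side (Axl, Mertk, Pros1 and Stab1) and 0 fell, by limma with mouse as a block and a Benjamini-Hochberg adjusted p under 0.05 over all genes tested. Over all genes tested, 9.89% rose and 12.7% fell, which makes 22.6% in either direction. At an unadjusted limma p under 0.05, 5 of the 9 were higher and 1, Mfge8, was lower. The share of all genes at that limma level is not given here, for these genes or for the lists below. The paired test of the methods had 3 higher and 0 lower at an unadjusted p under 0.05. Over all 14742 genes tested it had 1619 higher and 2236 lower. The median difference of the 9 genes was 0.48 on the log2 scale, beside -0.014 for all genes tested. Every OBX array lay above every control array for 5 of them, the 4 genes named and Megf10, and below for 1, Mfge8, where 20.7% of all genes tested lay above and 20.7% below. The tissue is a mixture, so a change in the number of cells of a type and a change in the RNA of each such cell cannot be told apart in any of these values.

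**Figure D1:**
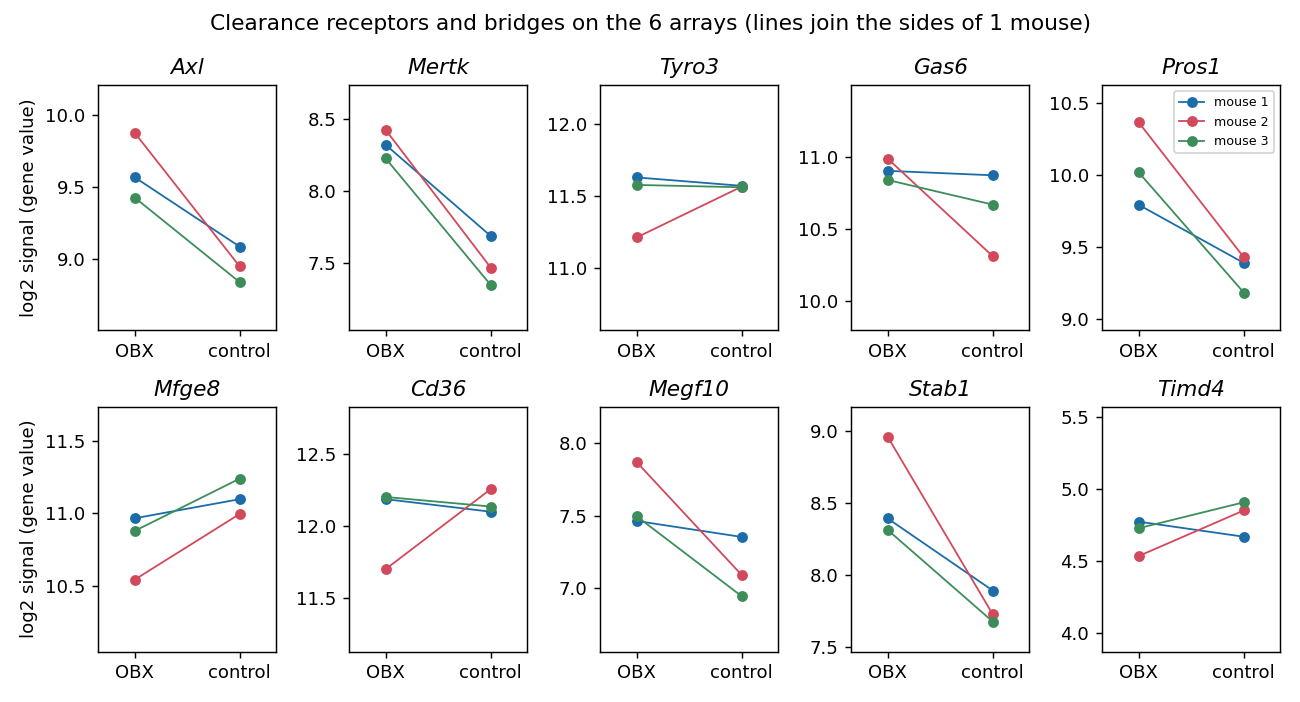
Log2 signal (vertical axis) of each of the 10 genes in OBX epithelium (left) and control epithelium (right), with each line joining the sides of 1 mouse and each panel spanning the same number of log2 units around its own level. The lines of Axl, Mertk, Pros1 and Stab1 run lower on the control side in all 3 mice, whereas those of Tyro3 and Cd36 run in mixed directions.

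Axl and Mertk, the TAM receptors known from macrophages and other phagocytes, rose, and Tyro3, the TAM receptor counted in this tissue among the markers of sustentacular cells and glands, did not pass the test. Axl measured 9.57, 9.88 and 9.43 on the log2 scale in OBX epithelium of mice 1, 2 and 3, and 9.09, 8.95 and 8.84 in their control epithelium. All 3 OBX arrays thus lay above all 3 control arrays. The difference was 0.67 ± 0.12 (SE), a 1.59-fold higher signal, with a 95% interval of 0.36 to 0.97 (limma adjusted p = 0.0214).

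Mertk, whose receptor is needed for the uptake of dying cell material by macrophages and by the retinal pigment epithelium, had the smallest adjusted p of the group. It measured 8.32, 8.43 and 8.23 in OBX epithelium and 7.69, 7.47 and 7.35 in control epithelium. The arrays did not overlap, and the OBX values stood close together. The difference was 0.82 ± 0.10 (SE), or 1.77-fold, with a 95% interval of 0.56 to 1.08 (limma adjusted p = 0.00921).

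Tyro3 measured 11.63, 11.21 and 11.57 in OBX epithelium and 11.57, 11.56 and 11.56 in control epithelium. The control values were nearly the same in all 3 mice, and only the OBX array of mouse 2 stood below them. The difference was -0.093 ± 0.12 (SE), with a 95% interval of -0.39 to 0.21 (limma adjusted p = 0.597). Without mouse 2 it was 0.037. The interval of Tyro3 did not reach those of Axl and Mertk, but the receptors were not tested against each other.

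The promoter windows of the 4 genes that rose, and of Tyro3, the TAM receptor that did not pass the test, are shown for their sequence only. They are the 250 bases before a transcription start that RefSeq annotates on GRCm38.p6, printed 5' to 3' on the gene's own strand. GC boxes (GGGCGG, the core bound by Sp1 and KLF factors, or the same letters of the opposite strand) are in capitals. For Axl, Tyro3 and Stab1 that start lies inside the annotated gene. The Tyro3 window lies wholly within the gene, and those of Axl and Stab1 lie partly within it.
Axl chr7:25788734-25788983 strand minus: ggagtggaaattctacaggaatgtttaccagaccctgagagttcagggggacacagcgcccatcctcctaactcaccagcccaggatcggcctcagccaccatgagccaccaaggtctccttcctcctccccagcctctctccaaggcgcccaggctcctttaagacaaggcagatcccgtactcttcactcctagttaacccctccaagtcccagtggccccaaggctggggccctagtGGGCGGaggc
Mertk chr2:128698665-128698914 strand plus: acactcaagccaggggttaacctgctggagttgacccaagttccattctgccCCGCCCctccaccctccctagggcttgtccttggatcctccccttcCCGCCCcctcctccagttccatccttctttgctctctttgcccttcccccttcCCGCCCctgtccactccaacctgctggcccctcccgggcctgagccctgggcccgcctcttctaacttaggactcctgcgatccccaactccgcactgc
Tyro3 chr2:119799264-119799513 strand plus: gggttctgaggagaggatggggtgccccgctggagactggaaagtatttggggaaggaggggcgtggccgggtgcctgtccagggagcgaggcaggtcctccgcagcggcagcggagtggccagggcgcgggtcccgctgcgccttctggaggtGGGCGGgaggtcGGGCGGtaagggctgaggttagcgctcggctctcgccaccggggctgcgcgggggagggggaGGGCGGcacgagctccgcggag
Pros1 chr16:62854057-62854306 strand plus: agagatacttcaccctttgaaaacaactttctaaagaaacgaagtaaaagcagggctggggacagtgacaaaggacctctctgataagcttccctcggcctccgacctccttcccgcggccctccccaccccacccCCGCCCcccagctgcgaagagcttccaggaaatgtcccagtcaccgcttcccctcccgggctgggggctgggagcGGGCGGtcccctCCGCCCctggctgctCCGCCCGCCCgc
Stab1 chr14:31168642-31168891 strand minus: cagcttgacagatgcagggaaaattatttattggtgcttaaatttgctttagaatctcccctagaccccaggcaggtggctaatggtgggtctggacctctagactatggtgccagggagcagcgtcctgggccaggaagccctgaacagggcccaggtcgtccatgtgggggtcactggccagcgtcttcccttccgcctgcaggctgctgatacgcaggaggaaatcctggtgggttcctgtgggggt
Axl held 1 GC box in this window, Mertk 3, Tyro3 3, Pros1 5 and Stab1 0. In the full windows, which add 50 bases after the start, 7 of the 9 listed windows of the 10 genes held a GC box on either strand, against 35.7% of 32851 mouse windows. The exceptions were Stab1 and Timd4. Those windows held a CCAAT box (CCAAT), as did that of Cd36, where 37.4% of all windows had it, and the nuclear receptor half-site (AGGTCA, 16.3% of all windows) lay in those of Cd36 and Timd4. None of the 9 held a TATA box (TATAAA, 13.6%), an AP-1 site (TGANTCA, 7.81%), a PU.1 site (GAGGAAGT, 3.20%) or an E-box (CACGTG, 7.15%). The letters were searched on both strands, overlapping matches were counted, and a match describes the sequence only.

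Among the bridging proteins, Pros1 rose, Gas6 did not pass the test and Mfge8 lay lower without passing it. Pros1 encodes protein S, an anticoagulant of the blood that also activates Tyro3 and Mer. It measured 9.79, 10.36 and 10.02 in OBX epithelium and 9.39, 9.43 and 9.18 in control epithelium. Every OBX array was above every control array, with the widest step in mouse 2. The difference was 0.72 ± 0.13 (SE), or 1.65-fold, with a 95% interval of 0.39 to 1.06 (limma adjusted p = 0.0229).

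Gas6, the ligand of Axl, which also binds Tyro3 and Mer, measured 10.90, 10.99 and 10.84 in OBX epithelium and 10.87, 10.31 and 10.67 in control epithelium. The groups overlapped, and the control array of mouse 2 was the lowest of the 6. The difference was 0.29 ± 0.15 (SE), with a 95% interval of -0.09 to 0.68 (limma adjusted p = 0.216). It was 0.68 in mouse 2, against 0.031 and 0.17 in mice 1 and 3. Without mouse 2 the difference of Gas6 was 0.10 (limma adjusted p = 0.518).

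Mfge8 measured 10.97, 10.54 and 10.88 in OBX epithelium and 11.10, 11.00 and 11.24 in control epithelium. Here the OBX arrays lay below all control arrays. The difference was -0.32 ± 0.10 (SE), with a 95% interval of -0.58 to -0.06, and did not pass after adjustment (limma adjusted p = 0.0851). Centering each array on the ribosomal protein genes made it -0.55 and past the threshold (limma adjusted p = 0.0152), in a fit that called 4990 of all genes lower. Mfge8 did not pass without mouse 1, 2 or 3, at -0.41, -0.25 and -0.29 (adjusted p = 0.0810 to 0.384). Nor did it pass without the mouse as a block (0.155) or with quantile normalization (0.111).

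Of the remaining receptors, Stab1 rose, Megf10 lay higher without passing the test, and Cd36 did not pass it. Stab1 encodes stabilin-1, a scavenger receptor of tissue macrophages and sinusoidal endothelium. It measured 8.39, 8.96 and 8.31 in OBX epithelium and 7.89, 7.73 and 7.68 in control epithelium. The groups did not overlap, and mouse 2 had the widest step. The difference was 0.79 ± 0.16 (SE), or 1.73-fold, with a 95% interval of 0.37 to 1.21 (limma adjusted p = 0.0317), and it was 0.57 without mouse 2 (adjusted p = 0.0333).

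Megf10, an engulfment receptor known from astrocytes and muscle satellite cells, measured 7.46, 7.87 and 7.49 in OBX epithelium and 7.35, 7.09 and 6.94 in control epithelium. The arrays did not overlap, although the step in mouse 1 was only 0.11, against 0.78 and 0.56 in mice 2 and 3. The difference was 0.48 ± 0.15 (SE), with a 95% interval of 0.10 to 0.87 (limma adjusted p = 0.0794). Without mouse 1 it was 0.67 and passed the threshold (limma adjusted p = 0.0336). It did not pass without mouse 2, at 0.33 (adjusted p = 0.185), or without mouse 3, at 0.45 (0.291).

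Cd36, a scavenger receptor for thrombospondin and oxidized lipid, measured 12.19, 11.70 and 12.20 in OBX epithelium and 12.10, 12.26 and 12.14 in control epithelium. The OBX array of mouse 2 stood below the other 5. The difference was -0.13 ± 0.16 (SE), with a 95% interval of -0.54 to 0.27 (limma adjusted p = 0.571), and 0.077 without mouse 2.

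Timd4 encodes TIM-4, the phosphatidylserine receptor of resident macrophages. Its values were 4.77, 4.54 and 4.73 in OBX epithelium and 4.67, 4.85 and 4.91 in control epithelium. They overlapped between the sides, and their mean lay below the signal of 5.02 under which the lowest 10% of genes were left out. Timd4 was therefore not tested at the gene level.

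**Figure D2:**
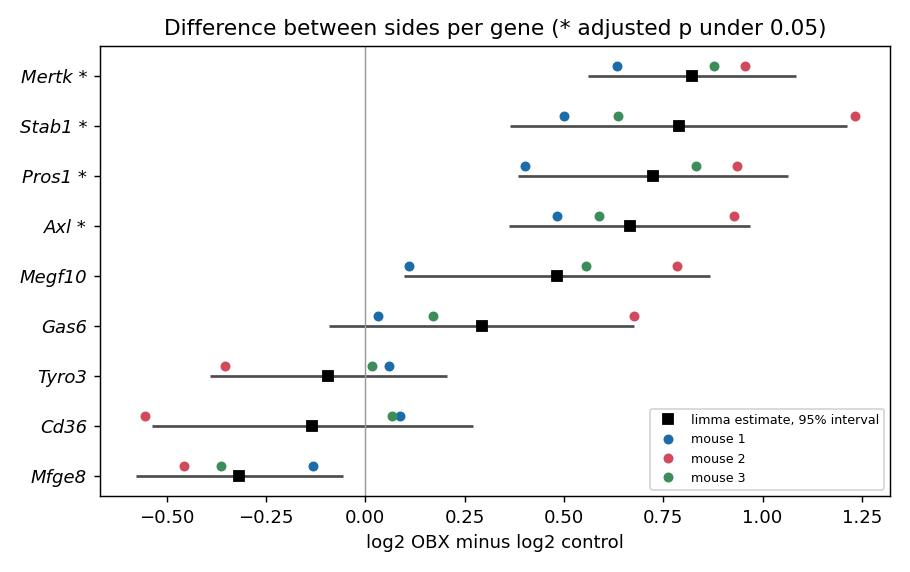
Log2 OBX minus log2 control (horizontal axis) for the 9 genes tested, with the limma estimate and its 95% interval (square and line) and the difference in each of the 3 mice (colored points). The intervals of Mertk, Stab1, Pros1 and Axl lie above 0 and pass after adjustment, whereas those of Megf10 and Mfge8 exclude 0 only before it.

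All 10 genes had their largest absolute difference in mouse 2, which was so for 49.7% of all genes tested. For 7 of the 10 the difference had the same sign in all 3 mice, and for Tyro3, Cd36 and Timd4 it was mixed, where 60.6% of all genes tested had a single sign. The calls depended on mice 2 and 3. Without mouse 2, Axl (0.53), Mertk (0.76) and Stab1 (0.57) stayed past the threshold and Pros1 had 0.62 (adjusted p = 0.0552). With arrays centered on the ribosomal protein genes, which moves the median of all genes to -0.24, only Mertk of the 4 passed, at 0.59, and Axl had 0.44, Pros1 0.50 and Stab1 0.56 (adjusted p = 0.0545 to 0.0735). Without mouse 3 none of the 4 passed, with differences of 0.71 for Axl, 0.79 for Mertk, 0.67 for Pros1 and 0.87 for Stab1 and adjusted p = 0.0656 to 0.125, in a fit in which the count of all genes that rose was 63 in place of 1458.

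The exon probe sets of a gene give separate readings of its transcripts. Of the 268 probe sets, 254 had enough signal to be tested, and 36 were higher on the OBX side and 0 lower (limma per probe set, adjusted p under 0.05 over 188351 probe sets), where 2.50% of all probe sets tested were higher and 4.26% lower. At an unadjusted p under 0.05, 134 were higher and 7 lower, and the share of all probe sets at that level is not given here. The 36 belonged to Stab1 (14 of 76 tested), Mertk (11 of 22), Axl (4 of 24), Pros1 (4 of 19) and Megf10 (3 of 32). The number of calls moves strongly with the settings, and without mouse 2 or mouse 3 it was 0.

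All 22 probe sets of Mertk had a mean difference above 0, at 0.32 to 1.20, and 19 of them had no overlap between the sides. All 19 of Pros1 lay above 0, at 0.41 to 0.98, and none of the 19 overlapped. For Stab1, 75 of 79 lay above 0 and 65 did not overlap, and for Axl, 23 of 25 lay above 0 and 18 did not overlap. Over all probe sets with 1 gene symbol, 16.2% had every OBX array above every control array and 14.2% had every one below.

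All 18 probe sets of Gas6 had a mean difference above 0, but 10 of them were higher in all 3 mice and 1 was free of overlap. All 22 of Cd36 had a mean difference below 0, but only 1 was lower in all 3 mice, and the gene's value was 0.087 and 0.066 in mice 1 and 3 and -0.56 in mouse 2. Of the 22 of Tyro3, 20 had a mean difference below 0, 6 were lower in all 3 mice and 3 did not overlap. Megf10 had 32 of 35 above 0, and Timd4 was mixed, with 5 of 12 above 0 and 7 below. Probe sets of a gene are readings of the same RNA and not replicates.

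**Figure D3:**
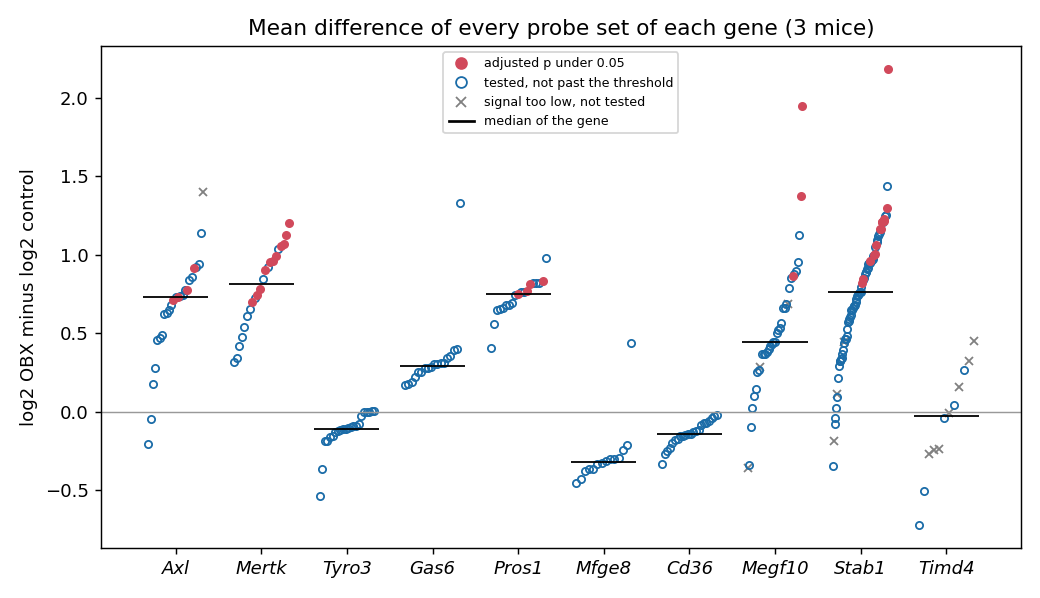
Mean log2 OBX minus log2 control over 3 mice (vertical axis) of each of the 268 probe sets, ordered by size within each gene, with the gene's median as a line. Filled points passed the adjusted threshold, open points were tested and did not, and crosses had too little signal to be tested. Points of Mertk and Pros1 all lie above 0, those of Cd36 all below, and 1 probe set of Mfge8 lies apart from the other 13.

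The differences among the probe sets of 1 gene were put to diffSplice of limma, by its Simes form and for genes with at least 4 probe sets. Mfge8 (adjusted p = 0.00253), Stab1 (0.00601), Megf10 (0.0230) and Timd4 (0.0408) passed, among 7.99% of the 13357 genes tested. With each value weighted by the spread usual at its signal, only Mfge8 passed (adjusted p = 0.0296), among 4.33% of genes, and the other 3 had adjusted p = 0.209 to 0.428. With diffSplice's F test in place of the Simes form, Stab1 (adjusted p = 0.0188) and Timd4 (0.0283) passed, and Megf10 (0.188) and Mfge8 (0.153) did not. No one of the 4 genes passed in all 3 forms. Without the mouse as a block, Timd4 had adjusted p = 0.355 in the Simes form. Its test used 5 of its 12 probe sets, as the other 7 had too little signal. With no signal filter, and so with all 12, Timd4 had adjusted p = 0.986 in the Simes form.

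Mfge8 differed through a single probe set, number 4485965, with 9.248, 9.245 and 9.055 in OBX epithelium and 8.495, 9.001 and 8.739 in control epithelium. It was higher on the OBX side in all 3 mice, by 0.75, 0.24 and 0.32. The mean difference was 0.44 ± 0.16 (SE), which did not pass by itself (limma adjusted p = 0.157) but lay 0.77 above that of the rest of the gene. The other 13 probe sets had mean differences of -0.45 to -0.21. Its place in the gene is not known here, so no exon or isoform can be named. The call had adjusted p = 0.00844 without mouse 1, 0.0530 without mouse 2 and 0.337 without mouse 3, and 0.153 with diffSplice's F test.

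**Figure D4:**
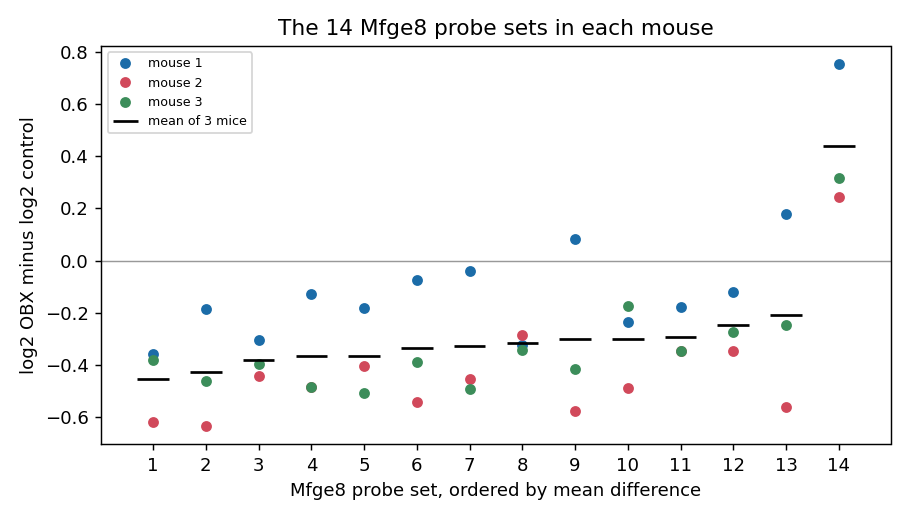
Log2 OBX minus log2 control (vertical axis) of the 14 probe sets of Mfge8, ordered by their mean over the 3 mice (lines), with each mouse as a colored point. Probe set 14 in this order is above 0 in all 3 mice, and the means of the other 13 lie below 0.

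Beyond these 10 genes, lists of other genes of the same process held 125 genes, of which 115 were tested, 34 rose and 5 fell, with a median difference of 0.27 (beside -0.014 for all genes). The lists were chosen with results of these data known, and their counts describe them only. Each count stands beside the 9.89% of all genes tested that rose and the 12.7% that fell. Among 23 other engulfment receptors, 7 rose and 0 fell (14 and 0 at an unadjusted limma p under 0.05), with a median of 0.44. Itgav, the alpha v subunit of the integrins that bind MFG-E8, rose by 0.81 ± 0.09 (SE, limma adjusted p = 0.00768), the hyaluronan receptor Cd44 by 0.73 ± 0.11 (0.0155) and the lipid-binding myeloid receptor Cd300lb by 0.71 ± 0.12 (0.0179). Without the mouse as a block, Cd300lb did not pass (adjusted p = 0.0702). Lrp1, by 1.02 ± 0.22 (SE, limma adjusted p = 0.0336), Scarf2, Scarb1 and Itgb5 rose as well.

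Bridging proteins and opsonins other than the 3 above had the largest share of the pathway lists, with 9 of 17 higher, 1 lower and a median of 0.62. C1qb, a chain of the complement starter C1q, rose by 1.06 ± 0.15 (SE, limma adjusted p = 0.0133), the matrix thrombospondin Thbs2 by 0.92 ± 0.14 (0.0159) and the complement component C3 by 0.87 ± 0.15 (0.0192), which did not pass without the mouse as a block (adjusted p = 0.108). C1qa, C1qc, C4b, Thbs1, Edil3 and Apoe were the others higher. The gene that fell was Tub, which encodes the bridging protein tubby, also a ciliary transport protein of neurons, at -0.70 (adjusted p = 0.0309).

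Of 18 genes of the machinery that carries the signal inside the phagocyte, 5 were higher and 2 lower (median 0.27). Over all genes tested, 9.89% were higher and 12.7% lower. The engulfment adaptor Elmo1 rose by 0.76 ± 0.09 (SE, limma adjusted p = 0.00817) and its relative Elmo2 fell by 0.81 ± 0.08 (0.00621). Gulp1, an adaptor of engulfment receptors, rose by 0.76 ± 0.10 (0.0113). The others that rose were Rac1, Rac2 and Vav1, and the other that fell was the lipid transporter gene Abca7. These names were added after their values were seen, to complete the counts. So were Lrp1, Scarf2, Scarb1, Itgb5, C1qa, C1qc, C4b, Thbs1, Edil3, Apoe and Tub above, and Ano6, Atp11a, Cybb and Plcg2 below.

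Find-me, eat-me and do-not-eat-me signals had 4 of 16 genes higher and 1 lower (median 0.29). The ATP receptor P2ry2 rose by 0.63 ± 0.10 (SE, limma adjusted p = 0.0182) and the sphingosine phosphate receptor S1pr1 by 0.86 ± 0.16 (0.0242), with the scramblase gene Ano6 and the flippase gene Atp11a. Xkr4, of the scramblase family that exposes phosphatidylserine, fell by 0.87 ± 0.13 (0.0133). Genes of phagosome maturation had 4 of 20 higher and 0 lower (4 and 1 at an unadjusted p under 0.05), with a median of -0.054. The NADPH oxidase subunit gene Cyba rose by 0.60 ± 0.09 (0.0157), the lysosomal nuclease gene Dnase2a by 0.65 ± 0.12 (0.0251) and the transporter gene Slc37a2 by 0.57 ± 0.12 (0.0303), and the other was the oxidase subunit gene Cybb.

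A list of enzymes that mature or shed the TAM ligands and receptors and of genes that act downstream had 4 of 11 higher and 0 lower (6 and 0 at an unadjusted p under 0.05, median 0.31). The kinase subunit gene Pik3r1 rose by 0.62 ± 0.10 (SE, limma adjusted p = 0.0187), the cytokine signaling inhibitor Socs3 by 0.53 ± 0.10 (0.0270) and the shedding protease gene Adam10 by 0.40 ± 0.09 (0.0407), with the phospholipase gene Plcg2. Lipid-sensing nuclear receptors and their targets had 1 of 10 higher and 1 lower (median -0.069). These counts are near the shares of all genes tested, 9.89% and 12.7%, and neither gene is itself a nuclear receptor. Abca1, a cholesterol exporter, rose by 1.04 ± 0.12 (0.00768), and the coactivator gene Ppargc1b fell by 0.47 ± 0.09 (0.0238). As with the 10 genes, leaving out mouse 3 lowered the count over the 115 genes to 4 higher and 0 lower.

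For each of the 4 genes that rose, the genes whose values on the 6 arrays lay closest, each gene centered on its own mean, were found over all genes tested. They were Tubb6 and Cobll1 for Axl, at root mean square distances of 0.026 and 0.029 on the log2 scale, Oaf and Myc for Mertk (0.045 and 0.051), Cd44 and Tnfrsf11b for Pros1 (0.043 and 0.045), and Zfhx4 and Pde7a for Stab1 (0.041 and 0.047).

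Markers of the cell types in the tissue moved too, and the defining markers named here were all above the signal filter of 5.02, on a scale that has no 0. Of 15 macrophage markers tested, 7 were higher and 0 lower on the OBX side (14 and 0 at an unadjusted limma p under 0.05), with a median of 0.84, and their summed linear signal was 10031 to 20315 in OBX epithelium and 5872 to 8537 in control epithelium. Cd68, the lysosomal protein gene of macrophages, averaged 10.02 ± 0.40 in OBX epithelium and 8.93 ± 0.33 in control epithelium, and Adgre1, which encodes a surface receptor of macrophages, averaged 8.46 ± 0.51 in OBX epithelium and 7.71 ± 0.15 in control epithelium (SD, n = 3 mice). The mean difference over the macrophage markers was 0.52, 1.24 and 0.64 in mice 1, 2 and 3, and over the 9 genes tested here it was 0.24, 0.46 and 0.38. Both were largest in mouse 2. So were those of endothelial (0.16, 1.11 and 0.39), fibroblast and stromal (0.31, 0.87 and 0.86) and glial markers (0.17, 0.62 and 0.26). Basal cell, immature OSN, neutrophil and platelet markers were highest in mouse 3, and sustentacular and respiratory markers in mouse 1. The part of macrophage number in the higher Axl, Mertk, Pros1 and Stab1 signals was not tested.

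Fibroblast and stromal markers had 5 of 10 higher (Col3a1, Dcn, Lum, Pdgfrb and Mmp2) and a median of 0.74, with summed signals of 47250 to 55245 in OBX epithelium and 28938 to 41145 in control epithelium. Endothelial markers had a median of 0.56 with 1 of 11 higher (Kdr), near the 9.89% of all genes tested that rose. Their sums were 2835 to 4279 in OBX epithelium and 2027 to 2613 in control epithelium. With an unadjusted limma p under 0.05, 9 fibroblast and stromal markers and 7 endothelial markers were higher and 0 lower. Sustentacular markers had a median of 0.11 with 1 of 12 higher (Epas1), also near the share of all genes tested that rose. Their sums overlapped, at 64905 to 72790 in OBX epithelium and 68058 to 69124 in control epithelium. All 11 mature OSN markers were lower, with a median of -1.37 and sums of 20032 to 39454 in OBX epithelium and 68910 to 77387 in control epithelium. The part of neuron loss in the values of Mfge8, Tyro3, Cd36 and Timd4 was not tested.

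**Figure D5:**
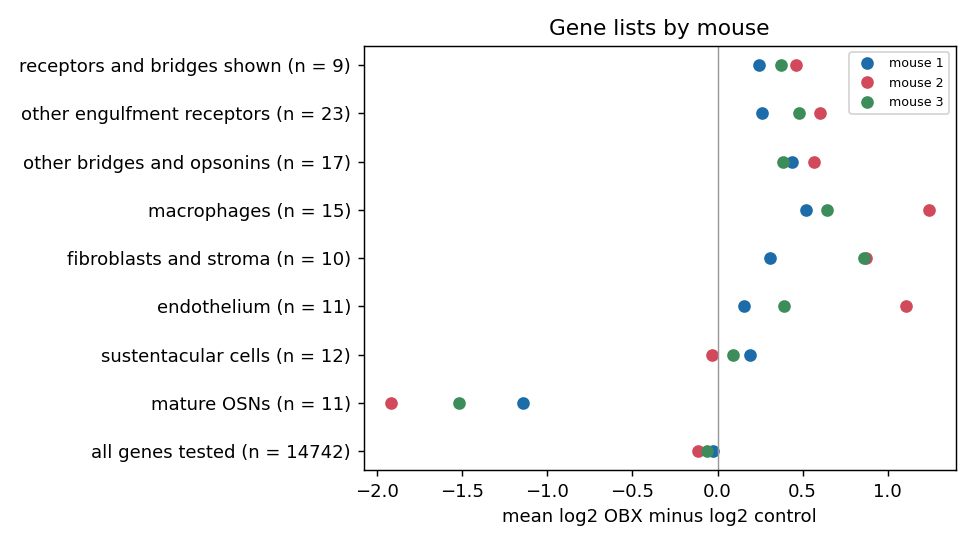
Mean log2 OBX minus log2 control over the genes tested of each list (horizontal axis), with each of the 3 mice as a colored point and the number of genes in brackets. Macrophage markers lie at 0.52 to 1.24 and mature OSN markers at -1.92 to -1.14, and mouse 2 holds the outermost value of both.

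Of the remaining lists, basal cell and precursor markers had 7 of 9 higher (9 at an unadjusted limma p under 0.05, median 0.69). Ensheathing and Schwann glia had 2 of 7 higher (S100b and Erbb3, median 0.33) and respiratory epithelium 1 of 4 (Muc5b, median 0.20). Immature OSN markers had 1 of 8 lower (Crmp1, median 0.085), where 12.7% of all genes tested were lower. Neutrophil markers (9 tested, median 0.57) and platelet and blood markers (5 tested, median 0.20) had 0 in either direction in limma, also at an unadjusted p under 0.05, and the neutrophil mean differed between mice, at -0.11, 0.21 and 1.29. Many of these markers are expressed in more than 1 cell type, and some genes of the lists were not analyzed here.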

How the data were processed

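RNA of the epithelium of each side of 3 mice was hybridized to 6 Affymetrix Mouse Exon 1.0 ST arrays. The deposited log2 values came from the authors' RMA run in Affymetrix Expression Console, with background correction, normalization across arrays and 1 value per probe set (build and versions not given in the sources used here). Methods in the paper describe gene-level values, but the deposited table holds 229581 probe sets, so the step to genes was done here. The platform annotation gave exactly 1 symbol to 209279 of them, several to 4446 and none to 15856. Symbols were updated through a RefSeq table (14190 current, 2120 updated, 25 kept, 45 not found there). Median polish (Tukey) combined the probe sets into 16380 genes, 541 of them from a single probe set, and the lowest 10% by mean signal, under 5.02, were left out, as in the methods.

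Genes and probe sets were fitted by limma (version 3.58.1; lmFit, eBayes) under R 4.3.3, with data.table (version 1.17.8) to read tables. The model held side and a block for mouse, and two-sided p-values were adjusted by Benjamini-Hochberg over all features tested, with a threshold of 0.05. The pairing comes from the labels and the methods. After removal of side means, the sides of mice 1, 2 and 3 correlated at r = -0.07, 0.27 and 0.24, and differences correlated between mice at 0.693 to 0.826. Unequal probe sets were tested with diffSplice. Median polish, the limma fits and the Simes form of diffSplice were run on simulated data, with noise drawn independently for each probe set. There the unweighted diffSplice made extra false calls where spread depended on signal, so a weighted fit (vooma) was added. The other steps were not simulated.

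The members and lists were chosen with earlier results of these data known. Named were every member, up to 3 genes past the threshold with the smallest p from each pathway list, the 2 genes closest to each member past the threshold, and defining markers, of which the text gives 4. Also named in brackets, outside this rule, are cell type markers that passed the threshold in their lists. Alternatives changed the block, test, spread estimate, filter, scaling, probe set step and mice. Promoter windows are those of RefSeq, which listed 9 of the 10 genes. Summed linear signals add the antilogs of the log2 gene values. The number of mice limits the precision. Figures were made with matplotlib 3.10.9 in Python 3.11.15.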

Additional observations from a re-analysis of the deposited data

How the results depend on the processing

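All 9 genes tested kept the direction of their difference under every alternative except Tyro3 and Cd36, with -0.17 to 0.037 and -0.24 to 0.077 when each mouse was left out, and the positive values without mouse 2. Without the mouse as a block, 4 of the 9 genes rose and 0 fell, as with it. The pathway lists had 25 higher and 4 lower without the block, against 34 and 5 with it, and Cd300lb (adjusted p = 0.0702) and C3 (0.108) no longer passed. Over all genes 1285 rose and 1543 fell without the block. Of the genes with unequal probe sets, Timd4 lost its call without it (adjusted p = 0.355). The paired t-test of the methods gave 0 higher after Benjamini-Hochberg adjustment, and 0 higher and 1 lower over all genes. At an unadjusted 0.05 it gave 3 of the genes higher, Stab1 not among them. In the pathway lists it then gave 28 higher and 9 lower, and over all genes 1619 higher and 2236 lower. After adjustment the paired t-test gave 0 pathway genes higher and 0 lower. Centering on the level of ribosomal protein genes moved the median of all genes to -0.24 and left 1 of the genes higher (Mertk, 0.59) and 1 lower (Mfge8, -0.55), with 437 genes higher and 4990 lower over all genes and 14 pathway genes higher and 23 lower. Shifting by those genes' median deviation, an alternative chosen after seeing the data, likewise gave 1 and 1 (Mertk and Mfge8), 244 and 4201 over all genes, and 8 and 18 in the pathway lists. Of all calls, 43.7% were higher, against 8.05% and 5.49% under these scalings. The cause of these shifts was not tested. With the median of probe sets 934 of all genes and 20 pathway genes rose, and Axl did not pass (adjusted p = 0.0748).

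Leaving out each mouse gave 0 to 5 of the genes higher, 63 to 1122 of all genes higher and 825 to 1566 lower, and 4 to 28 pathway genes higher and 0 to 4 lower; the lowest counts came without mouse 3. The 36 probe sets higher became 106 with trend and robust spread (with 2 lower in place of 0), 4 with no signal filter, 82 with the lowest 30% left out, 22 with quantile normalization and 0 to 40 without each mouse. The 4 genes with unequal probe sets became 1 with the lowest 30% left out, 2 by the F test (Stab1 and Timd4), 1 with weights (added after seeing the data) and 0 to 4 without each mouse. The 3 pairs limit the precision, as the intervals given show, and the dim Timd4 was not tested at the gene level.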
